A study of Mus musculus with 10 samples.

Results

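The citrate cycle enzymes examined here are 10 nuclear-encoded proteins of the mitochondrial matrix: citrate synthase (Cs), the NADP-dependent isocitrate dehydrogenase (Idh2), the 3 subunits of the NAD-dependent isocitrate dehydrogenase (Idh3a, Idh3b and Idh3g), the substrate-binding subunit of 2-oxoglutarate dehydrogenase (Ogdh), 2 subunits of succinyl-CoA ligase (Suclg1 and Sucla2), fumarate hydratase (Fh1) and mitochondrial malate dehydrogenase (Mdh2). Members were all probe sets annotated to one of these symbols alone, which gave 17 probe sets of 10 genes among 22626 probe sets of 12393 genes, controls left out. No probe set named a member beside another symbol, and all 17 lay above the median level of the arrays. Cs and Idh3a had 3 probe sets each, Idh3b, Idh3g and Mdh2 had 2 each, and the other members had 1.

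Total RNA from ventricles of mice was hybridised to 10 Affymetrix arrays, 1 extract per array. The groups were 4 arrays of alpha-TM180 ventricles, 3 of alpha-TM175 ventricles and 3 of nontransgenic control (NTG) ventricles, and in each group 1 array held a pool of 20 hearts and the others held 1 heart each. Both transgenic lines carry a mutant alpha-tropomyosin, and the series asked how expression differs early in severe hypertrophy (alpha-TM180) and mild hypertrophy (alpha-TM175). The animals received no treatment; their age and sex and the promoter of the transgenes are not given in the sources used here.

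In the citrate cycle, acetyl-CoA from fatty acids, glucose or ketones is joined to oxaloacetate, and carbon is then released as carbon dioxide while electrons pass to NADH and to the respiratory chain. Heart muscle is dense in mitochondria and takes most of its ATP from the oxidation this cycle feeds, so its cycle transcripts are abundant. The steps catalysed by citrate synthase, the NAD-dependent isocitrate dehydrogenase and 2-oxoglutarate dehydrogenase run far from equilibrium in muscle mitochondria and are regarded as the controlled ones.

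Promoter windows of 250 bases upstream of the annotated start were read from RefSeq on GRCm38.p6 for 9 of the 10 genes, all but Idh3a, as 14 windows among 32851. Their GC content ran from 46.8% in Idh3b to 74.0% in one of the 6 Ogdh windows, against a median of 52.4% over all windows. The windows of Cs, Idh3b and Mdh2 are shown because Cs holds both GC boxes and CCAAT, Idh3b holds CCAAT without a GC box, and Mdh2 holds a repeated palindrome. Capitals mark GGGCGG (a GC box) and CCAAT on either strand in Cs and Idh3b, and TCTCGCGAGA in Mdh2, a palindrome that was searched for after the sequence had been seen.
Cs, chr10:128337477-128337726, plus strand: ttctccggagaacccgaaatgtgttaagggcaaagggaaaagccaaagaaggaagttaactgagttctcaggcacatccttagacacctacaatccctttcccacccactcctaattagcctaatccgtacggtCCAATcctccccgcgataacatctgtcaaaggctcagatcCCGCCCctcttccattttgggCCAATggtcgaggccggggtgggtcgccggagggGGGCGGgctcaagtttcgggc
Idh3b, chr2:130284452-130284701, minus strand: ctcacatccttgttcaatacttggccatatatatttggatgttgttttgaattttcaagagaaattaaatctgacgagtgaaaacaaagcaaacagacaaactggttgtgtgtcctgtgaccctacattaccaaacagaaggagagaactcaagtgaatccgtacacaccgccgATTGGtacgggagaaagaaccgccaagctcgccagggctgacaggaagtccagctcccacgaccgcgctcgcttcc
Mdh2, chr5:135778399-135778648, plus strand: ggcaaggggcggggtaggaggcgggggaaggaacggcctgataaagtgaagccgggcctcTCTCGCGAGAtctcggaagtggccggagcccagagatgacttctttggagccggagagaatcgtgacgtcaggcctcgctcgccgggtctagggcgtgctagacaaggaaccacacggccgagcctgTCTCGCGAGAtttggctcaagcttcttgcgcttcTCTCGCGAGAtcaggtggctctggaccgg

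On either strand, GGGCGG stood in a window of 6 of the 9 genes (Cs, Idh2, Ogdh, Sucla2, Fh1 and Mdh2) and in 32.7% of all windows, and CCAAT in 5 (Cs, Idh2, Idh3b, Ogdh and Fh1) and in 33.8% of all windows. TGCGCA, the core of the motif of the nuclear respiratory factor NRF1, stood in Ogdh (6.43% of all windows), and CCGGAAG, bound by ETS factors such as GABP, in Idh3g (6.91%). AAGGTCA, the core site of estrogen-related receptors, was in no member's window (4.08% of all), and TATAAA was in none either (12.4%). The palindrome TCTCGCGAGA, held 3 times by the Mdh2 window, was in 0.39% of all windows. No motif contains another, and each match describes letters only.

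The arrays were alike in overall level, with median intensities of 66.6 to 71.0 and pairwise correlations of log2 intensity of 0.964 to 0.995 across probe sets. The first principal component, 47.5% of the variance, set the pooled arrays apart from the single hearts, so results are also given with extract type (pool or 1 heart) in the model. The alpha-TM175 array 1 read 988 for Xist, an X-linked transcript of female cells, and 7.23 for the Y-linked Eif2s3y, whereas the other single hearts read 99.5 to 136 and 44.7 to 60.8. The pools read 394 for Xist in alpha-TM180, 414 in alpha-TM175 and 149 in NTG, and for Eif2s3y 35.3 in alpha-TM180, 38.3 in alpha-TM175 and 46.7 in NTG. The part of the sex of the hearts in the pool differences given below was not tested. The 90th percentile of intensity was 395 to 418 in alpha-TM180, 336, 363 and 401 in alpha-TM175, and 371 to 424 in NTG. Tpm1, which encodes alpha-tropomyosin, averaged 16555 ± 741 in alpha-TM180 (SD, n = 4), 16039 ± 553 in alpha-TM175 (n = 3) and 12282 ± 987 in NTG (n = 3). Every array of both lines read above every NTG array for Tpm1, and only the model with extract type called alpha-TM180 (limma adjusted p = 0.0169, without extract type 0.065; alpha-TM175 0.0513 and 0.173).

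Transcripts of the citrate cycle read slightly lower in both tropomyosin lines than in nontransgenic ventricles, and no single probe set passed the test. In alpha-TM180 against NTG, 16 of the 17 probe sets had a log2 difference below 0, with a median of -0.22 and a range of -0.55 to 0.19, beside a median of -0.01 over all probe sets, of which 51.5% lay below 0. In alpha-TM175 against NTG, 16 of 17 were again below 0, with a median of -0.23 and a range of -0.67 to 0.01. Over all probe sets the median was 0.04, with 42.1% below 0. Most members are bright, and among 747 probe sets of mean intensity 1000 or more the median was -0.12, with 77.1% below 0. In alpha-TM180 that class had a median of -0.03, with 55.4% below 0. Without alpha-TM175 array 1, the heart with the high Xist reading, the members' median in alpha-TM175 was again -0.23 and none of the 17 was called. Both comparisons use the same 3 NTG arrays, so they are not independent of each other.

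None of the 17 had a limma adjusted p under 0.05 in alpha-TM180, where 0.504% of all probe sets did, and the adjusted p ran from 0.241 to 0.993. In alpha-TM175 none of 17 passed either, where 0.00884% of all probe sets did (2 probe sets), and the adjusted p ran from 0.222 to 0.989. At an unadjusted p under 0.05, 6 members were lower in alpha-TM180, against 3.95% of all probe sets, and 6 were lower in alpha-TM175, against 7.25%. With extract type in the model, 0 members passed after adjustment in either line while 2.01% of all probe sets did in alpha-TM180 and 0.862% in alpha-TM175. In that model 9 members were lower at an unadjusted p under 0.05 in each line, against 6.55% and 10.5% of all probe sets in alpha-TM180 and alpha-TM175. The smallest adjusted p then was 0.123 for Idh3a in alpha-TM180 and 0.0754 for Idh3a in alpha-TM175.

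**Figure D1:**
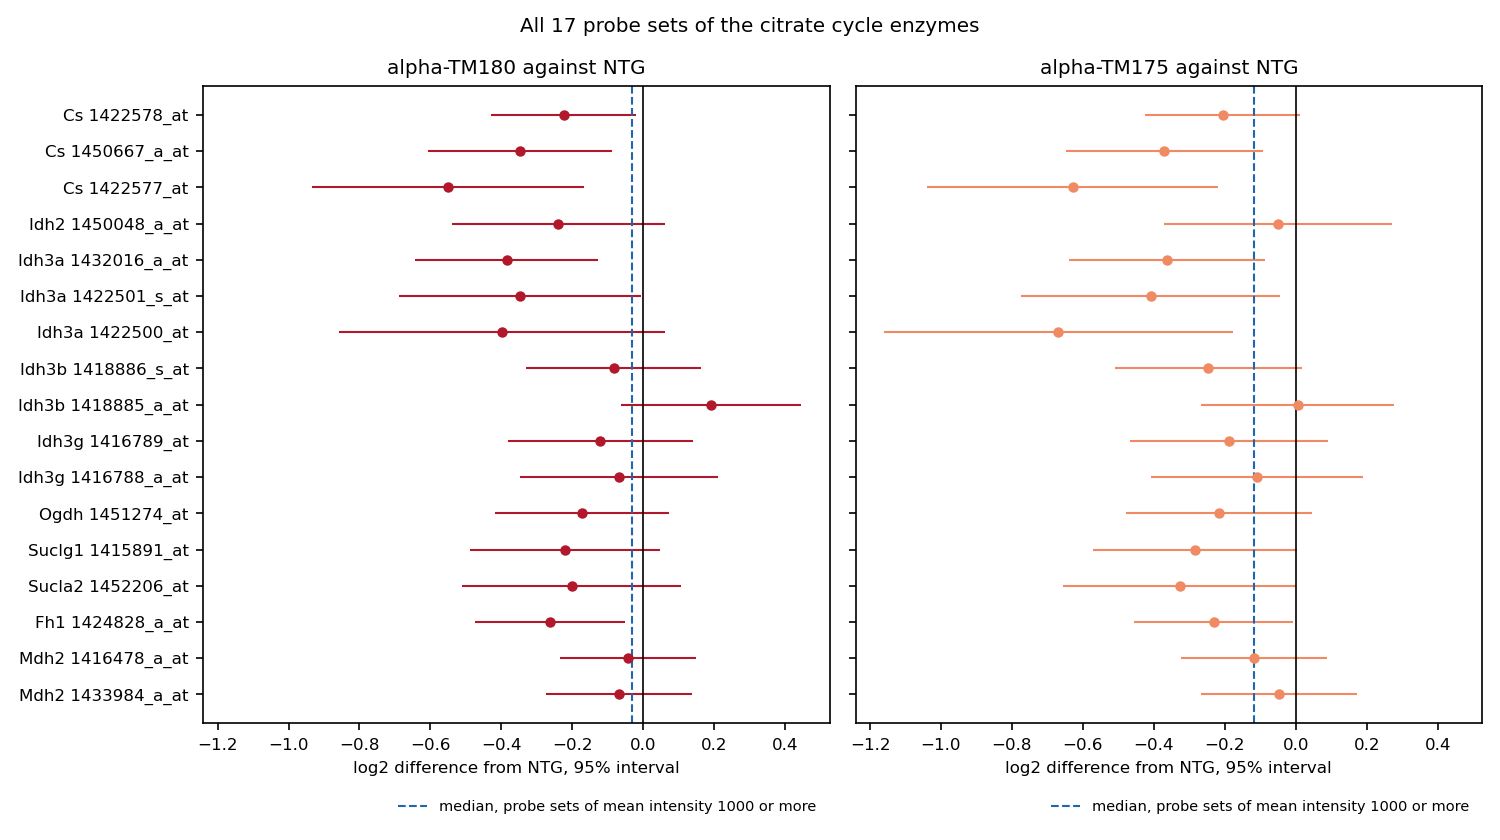
Log2 difference of each of the 17 probe sets in alpha-TM180 (left) and alpha-TM175 (right) against NTG; points are limma estimates and bars their 95% intervals. In each line 16 of 17 points lie left of 0, and the dashed line marks the median of all probe sets of mean intensity 1000 or more, -0.03 for alpha-TM180 and -0.12 for alpha-TM175.

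Citrate synthase, which condenses acetyl-CoA with oxaloacetate at the entry of the cycle, had 3 probe sets, and the means of all 3 lay below NTG in both lines. The brightest probe set (1422578_at) read 3102, 3001, 3150 and 2936 in the alpha-TM180 arrays, 3126, 3269 and 2877 in the alpha-TM175 arrays, and 3800, 3722 and 3186 in the NTG arrays. All alpha-TM180 arrays lay below all NTG arrays, while alpha-TM175 array 2 read above the lowest NTG array, the pool. The difference was 0.856-fold in alpha-TM180 (95% interval 0.743 to 0.986, limma adjusted p = 0.461) and 0.867-fold in alpha-TM175 (0.745 to 1.009, adjusted p = 0.406).

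The second Cs probe set (1450667_a_at) read 2850, 2417, 2874 and 2642 in alpha-TM180, 2273, 2705 and 3020 in alpha-TM175, and 3690, 3112 and 3494 in NTG. The third (1422577_at) read 1269, 1205, 868 and 1150 in alpha-TM180, 971, 1367 and 879 in alpha-TM175, and 1487, 1565 and 1855 in NTG. For both probe sets all 7 arrays of the 2 lines lay below all 3 NTG arrays. The third gave the widest difference of the Cs probe sets, 0.683-fold in alpha-TM180 (0.523 to 0.891, adjusted p = 0.266) and 0.647-fold in alpha-TM175 (0.486 to 0.859, adjusted p = 0.222). In alpha-TM175 the pool decided much of that value: the log2 difference was -1.08 between the pools and -0.41 between the single hearts. When the 3 Cs probe sets were averaged within each array and 12393 genes were tested, the log2 difference was -0.37 in alpha-TM180 (interval -0.57 to -0.18, limma adjusted p = 0.0806) and -0.40 in alpha-TM175 (interval -0.61 to -0.20, adjusted p = 0.117).

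**Figure D2:**
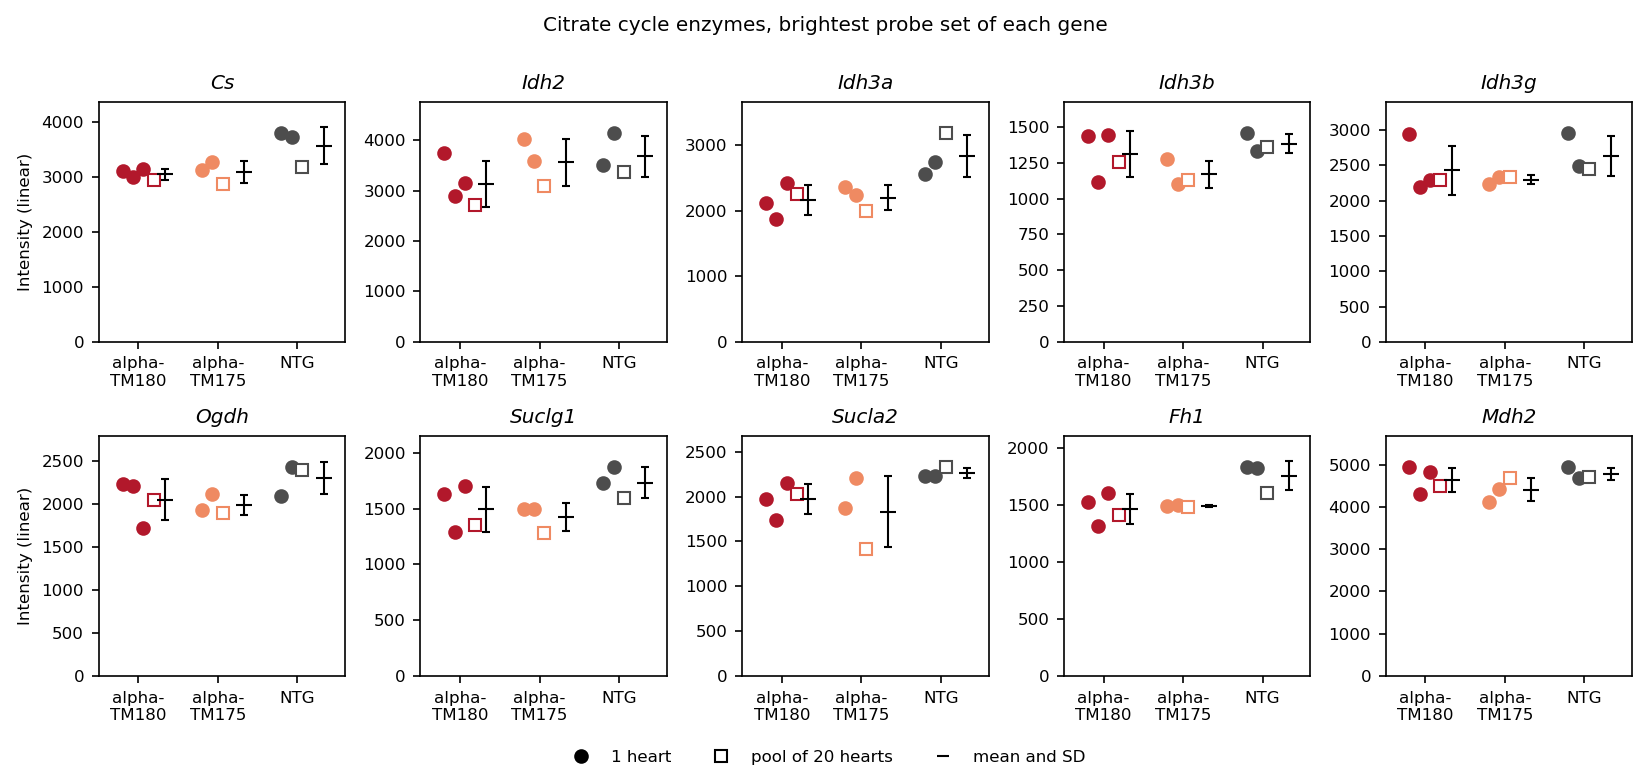
Linear intensity of the brightest probe set of each member in every array, with filled circles for single hearts, open squares for pools of 20 hearts, and the mean and SD of each group as a bar (alpha-TM180 n = 4, alpha-TM175 n = 3, NTG n = 3). All arrays of both lines lie below all NTG arrays for Idh3a, Sucla2 and Fh1, and the groups overlap in at least 1 line for the other 7 genes.

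Isocitrate is oxidised to 2-oxoglutarate by the NAD-dependent enzyme, in which the Idh3a product is the catalytic subunit and those of Idh3b and Idh3g are partner and regulatory subunits. The brightest Idh3a probe set (1432016_a_at) read 2119, 1882, 2421 and 2253 in alpha-TM180, 2369, 2240 and 1991 in alpha-TM175, and 2568, 2741 and 3188 in NTG. No array of either line reached the lowest NTG array. The difference was 0.766-fold in alpha-TM180 (0.640 to 0.915, limma adjusted p = 0.241) and 0.778-fold in alpha-TM175 (0.643 to 0.942, adjusted p = 0.280). It was wider between the pools than between the single hearts in both lines, with log2 differences of -0.50 and -0.32 in alpha-TM180 and of -0.68 and -0.20 in alpha-TM175.

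The other Idh3a probe sets gave differences of the same sign, with log2 values of -0.35 (1422501_s_at) and -0.40 (1422500_at) in alpha-TM180, and -0.41 and -0.67 in alpha-TM175. Their groups overlapped in both lines. With extract type in the model and without NTG array 2, both passed in alpha-TM175 (log2 -0.53, limma adjusted p = 0.0421, and log2 -0.88, adjusted p = 0.0199). In that setting 1248 of all 22626 probe sets passed, against 195 with all arrays kept. NTG array 2 was the only array whose removal, with extract type in the model, gave a call among the members in alpha-TM175 or alpha-TM180 against NTG.

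Idh3b stood closer to NTG in alpha-TM180. Its brighter probe set (1418886_s_at) read 1437, 1115, 1444 and 1253 in alpha-TM180, 1278, 1102 and 1126 in alpha-TM175, and 1458, 1331 and 1363 in NTG. The alpha-TM180 arrays overlapped with NTG, and the alpha-TM175 arrays all lay below it. The differences were 0.944-fold (0.796 to 1.118) in alpha-TM180 and 0.843-fold (0.703 to 1.011) in alpha-TM175, with limma adjusted p of 0.973 and 0.406. The dimmer Idh3b probe set (1418885_a_at) averaged 189 ± 9.07 in alpha-TM180 (SD, n = 4), 167 ± 21.1 in alpha-TM175 (n = 3) and 166.0 ± 21.2 in NTG (n = 3), and was the one member probe set with a difference above 0, log2 0.19 in alpha-TM180 (adjusted p = 0.731) and 0.01 in alpha-TM175 (adjusted p = 0.989). The 2 Idh3b probe sets therefore disagreed in sign.

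Idh3g (1416789_at) read 2942, 2194, 2292 and 2288 in alpha-TM180, 2233, 2334 and 2335 in alpha-TM175, and 2961, 2489 and 2447 in NTG. The alpha-TM180 array 1 stood well above the other 3 of its line and within the NTG range, and the alpha-TM175 arrays lay below all NTG arrays. The log2 difference was -0.12 in alpha-TM180 (interval -0.38 to 0.14, limma adjusted p = 0.935) and -0.19 in alpha-TM175 (interval -0.47 to 0.09, adjusted p = 0.536). Its second probe set gave -0.07 and -0.11, with overlapping groups.

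The balance of subunits was compared within arrays, as the log2 ratio of the brightest probe sets, after the values above had been seen. The Idh3a over Idh3b ratio was 0.727 ± 0.120 in alpha-TM180 (SD, n = 4) and 1.03 ± 0.205 in NTG (n = 3), a difference of -0.30, with an exact two-sided permutation p of 0.114 where the smallest possible p is 0.0571. In alpha-TM175 it was 0.912 ± 0.102 (n = 3), a difference of -0.12 from NTG with an exact permutation p of 0.5, where the smallest possible is 0.1. The ratios overlapped between each line and NTG, and all 8 subunit comparisons, which also covered Idh3a over Idh3g, Idh3b over Idh3g and Suclg1 over Sucla2, had a Benjamini-Hochberg adjusted exact permutation p of 0.857. A ratio of 2 probe sets shows unequal difference only, not which subunit differed.

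Idh2, the matrix isocitrate dehydrogenase that makes NADPH, read 3754, 2891, 3156 and 2716 in alpha-TM180, 4020, 3582 and 3085 in alpha-TM175, and 3521, 4148 and 3373 in NTG. The groups overlapped in both lines, and within each group the pool gave the lowest reading. The log2 difference was -0.24 in alpha-TM180 (interval -0.54 to 0.06, limma adjusted p = 0.696) and -0.05 in alpha-TM175 (interval -0.37 to 0.27, adjusted p = 0.905). Idh2 was also the member with the lowest value in alpha-TM180 against alpha-TM175, -0.19 (interval -0.49 to 0.11), and was not called there.

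Ogdh encodes the thiamine-dependent subunit that opens the 2-oxoglutarate dehydrogenase reaction. It read 2229, 2207, 1723 and 2052 in alpha-TM180, 1935, 2117 and 1902 in alpha-TM175, and 2095, 2430 and 2401 in NTG. Single arrays of both lines read above the lowest NTG array, so the groups overlapped. The differences were 0.887-fold (0.748 to 1.051, limma adjusted p = 0.765) in alpha-TM180 and 0.861-fold (0.718 to 1.032, adjusted p = 0.451) in alpha-TM175.

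Succinyl-CoA ligase makes succinate and a nucleoside triphosphate, with Suclg1 as the subunit common to its ATP-forming and GTP-forming versions and Sucla2 as the partner in the ATP-forming one. Suclg1 read 1629, 1292, 1706 and 1349 in alpha-TM180, 1494, 1494 and 1280 in alpha-TM175, and 1726, 1872 and 1599 in NTG. Sucla2 read 1972, 1743, 2150 and 2026 in alpha-TM180, 1874, 2208 and 1417 in alpha-TM175, and 2233, 2229 and 2328 in NTG. Both lines lay below all NTG arrays for Sucla2, whereas for Suclg1 only alpha-TM175 did.

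The Suclg1 difference was 0.858-fold in alpha-TM180 (0.712 to 1.034, limma adjusted p = 0.672) and 0.821-fold in alpha-TM175 (0.673 to 1.002, adjusted p = 0.386). The Sucla2 difference was 0.869-fold in alpha-TM180 (0.702 to 1.076, adjusted p = 0.807) and 0.797-fold in alpha-TM175 (0.634 to 1.001, adjusted p = 0.385). In alpha-TM175 the Sucla2 value came mostly from the pool: its log2 difference was -0.72 between pools and -0.13 between single hearts. A test of whether genotype differences depended on extract type called no member (lowest limma adjusted p 0.907). Over all probe sets it called 1 in alpha-TM175 and 0 in alpha-TM180. With 1 pool per group, the test cannot decide whether the pool and single-heart differences of the members agree. For Sucla2 the log2 difference between pools minus that between single hearts was -0.58 in alpha-TM175 and -0.0046 in alpha-TM180.

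Fh1, which hydrates fumarate to malate, read 1523, 1311, 1606 and 1411 in alpha-TM180, 1493, 1495 and 1484 in alpha-TM175, and 1830, 1823 and 1607 in NTG. All arrays of both lines lay below all NTG arrays, though alpha-TM180 array 3 came within 1 unit of the NTG pool. The differences were 0.833-fold (0.720 to 0.964, limma adjusted p = 0.361) in alpha-TM180 and 0.852-fold (0.729 to 0.996, adjusted p = 0.373) in alpha-TM175.

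Mdh2, which regenerates oxaloacetate and also serves the malate-aspartate shuttle, differed least in alpha-TM180. It read 4930, 4312, 4819 and 4496 in alpha-TM180, 4122, 4428 and 4671 in alpha-TM175, and 4938, 4681 and 4712 in NTG. The alpha-TM180 arrays overlapped with NTG, and the alpha-TM175 arrays lay just below it. The log2 difference was -0.04 in alpha-TM180 (interval -0.24 to 0.15, limma adjusted p = 0.993) and -0.12 in alpha-TM175 (interval -0.32 to 0.09, adjusted p = 0.605), and the second Mdh2 probe set gave -0.07 and -0.05 with overlapping groups.

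Counting over all members, every alpha-TM180 array lay below every NTG array for 6 of 17 probe sets, against 4.19% of all probe sets and 5.37% of those above the median level. The same held in alpha-TM175 for 9 of 17 probe sets, against 8.11% of all and 13.5% of those above the median level. All arrays of both lines lay below all NTG arrays for 5 probe sets of 4 genes (2 of Cs and 1 each of Idh3a, Sucla2 and Fh1), against 2.21% of all probe sets and 3.70% of those above the median level. None of the 17 had all arrays of a line above all NTG arrays.

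The members varied together from array to array. The mean of the 10 genes, each by its brightest probe set and centred over the 10 arrays, was 0.06, -0.17, 0.01 and -0.10 on the log2 scale in alpha-TM180, -0.04, -0.02 and -0.17 in alpha-TM175, and 0.16, 0.17 and 0.11 in NTG. All 10 genes had their highest reading in an NTG array and none had its lowest there. The lowest means were those of alpha-TM180 array 2 and of the alpha-TM175 pool, each of which held the lowest reading of 3 genes. As a description over the 10 arrays, which carry the group differences too, all 45 pairs of genes had a Pearson correlation above 0, from 0.0202 for Idh3b with Ogdh to 0.878 for Suclg1 with Fh1, with a median of 0.556. These counts and correlations were not set against other bright probe sets, which as a class also read lower in alpha-TM175. Whether such joint variation is particular to the cycle genes was therefore not tested.

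**Figure D3:**
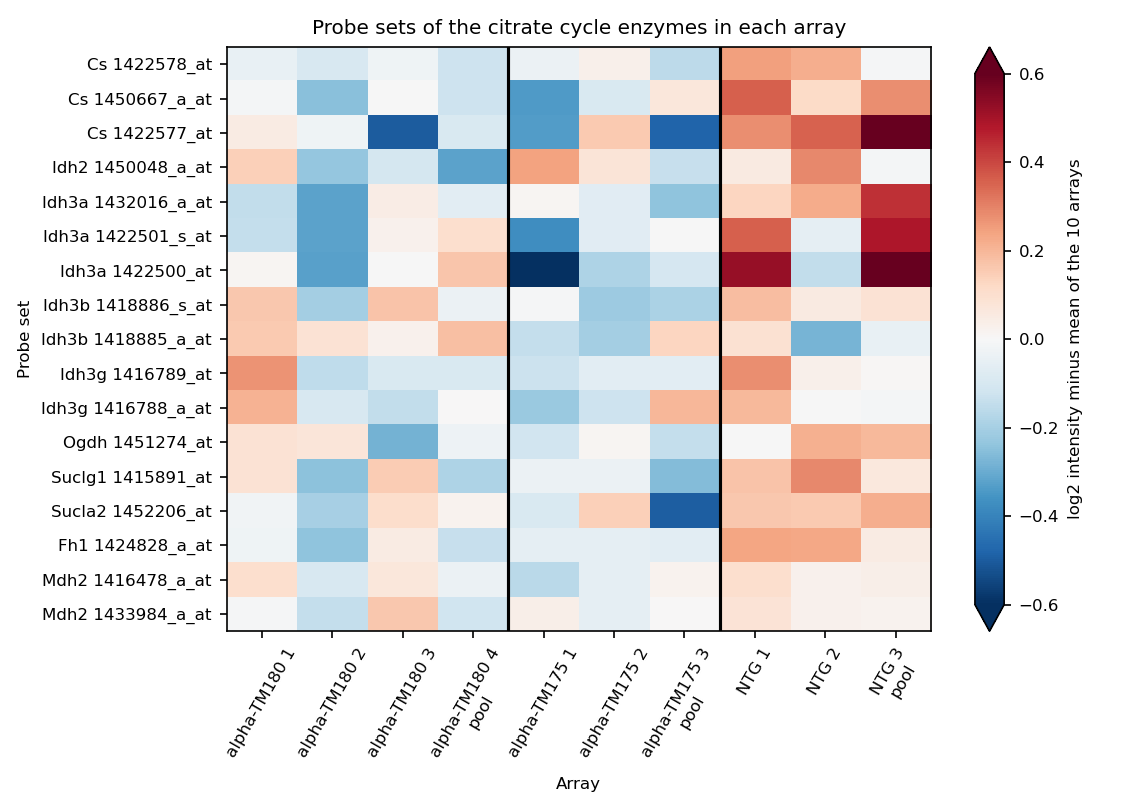
Log2 intensity of each of the 17 probe sets in each array minus its mean over the 10 arrays; columns are the arrays by group, with pools marked, and the colour scale ends at 0.6 in both directions. The NTG columns are mostly above the mean, and the darkest cells are in the dimmest probe sets of Cs and Idh3a.

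The cycle transcripts are abundant, and bright probe sets as a class read lower in alpha-TM175. Among 747 probe sets of mean intensity 1000 or more, to which 14 of the 17 members belong, the median log2 difference was -0.03 in alpha-TM180 with 55.4% below 0, and -0.12 in alpha-TM175 with 77.1% below 0. In this class all arrays of the line lay below all NTG arrays for 12.6% of probe sets in alpha-TM180 and 23.4% in alpha-TM175. The 14 members had medians of -0.21 and -0.22 in alpha-TM180 and alpha-TM175, and 9 of the 14 in alpha-TM180 but 5 of the 14 in alpha-TM175 lay below the class's first quartile.

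As deposited, the arrays did not share 1 distribution of intensities. When they were quantile normalized here, the class medians became -0.01 in alpha-TM180 and 0.00 in alpha-TM175. The median of the 17 members was then -0.18 in alpha-TM180, with 15 of 17 below 0, and -0.11 in alpha-TM175, with 13 of 17 below 0. Under that scaling 3 members in each line had all arrays below NTG, against 12.4% of the bright class in alpha-TM180 and 11.8% in alpha-TM175. Cs 1422577_at then had log2 differences of -0.57 in alpha-TM180 and -0.49 in alpha-TM175. The brightest Idh3a probe set was at -0.35 in alpha-TM180, and at -0.20 in alpha-TM175, where it was -0.36 as deposited. None was called (lowest limma adjusted p 0.230).

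**Figure D4:**
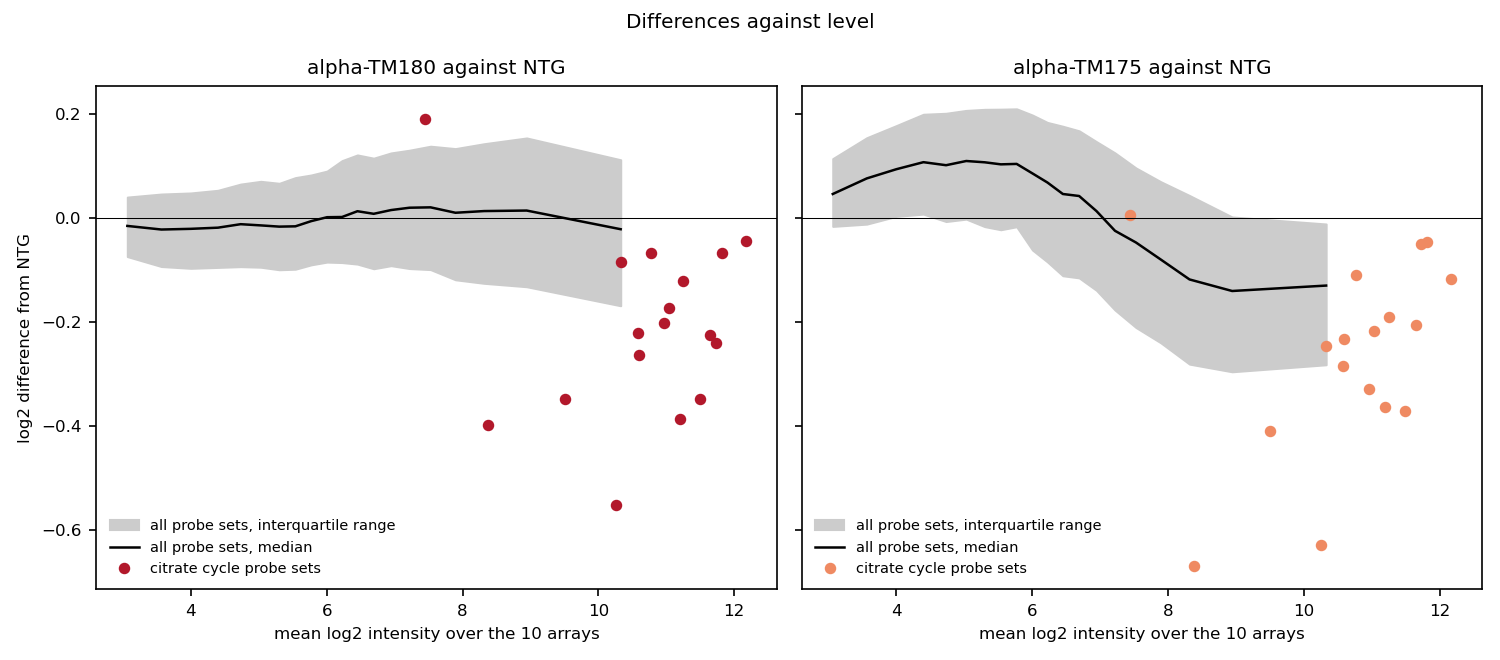
Log2 difference against mean log2 intensity for alpha-TM180 (left) and alpha-TM175 (right) against NTG; the line and grey band are the median and interquartile range of all probe sets in 20 bins of level, and points are the 17 member probe sets. The median of the brightest bins lies near 0 in alpha-TM180 and below 0 in alpha-TM175, where several members fall inside the band.

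Between the lines the members differed little. In alpha-TM180 against alpha-TM175, 12 of 17 probe sets lay above 0 and 5 below, with a median log2 difference of 0.06 and a range of -0.19 to 0.27. The median was -0.03 over all probe sets and 0.07 over those above the median level. None of the 17 passed (limma adjusted p 0.473 to 0.937), where 0% of all probe sets passed after adjustment. None differed in either direction at an unadjusted limma p under 0.05, where 3001 of 22626 probe sets did and 6.37% were lower. No member had all alpha-TM180 arrays below all alpha-TM175 arrays, against 7.37% of all probe sets and 3.63% of those above the median level; with extract type in the model 0 of 17 passed, against 0.0265% of all. After renewed quantile normalization the members' median was -0.06, so no direction held. The intervals leave room for moderate differences: for Cs (1422578_at) from -0.22 to 0.19, and for Idh3a (1422500_at) from -0.19 to 0.73. For 16 of the 17 probe sets the mean log2 levels of both lines lay below NTG, and the interval between the lines included 0 for all 17.

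Pooled and individual extracts were compared over the 3 genotypes. With genotype in the model, 22.2% of all probe sets differed between pooled and individual extracts, and 0 of the 17 members did, with 3 of 17 at an unadjusted p under 0.05, against 37.6% of all probe sets. The members went both ways, and some single differences were larger in size than the members' median difference from NTG. The lowest was Idh2 at -0.25 (limma adjusted p = 0.0855) and the highest Idh3a (1422500_at) at 0.36 (adjusted p = 0.0944).

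The other mitochondrial cycle subunits with a probe set (Dlst, Dld, Suclg2, Sdha, Sdhb, Sdhc and Sdhd) all lay below NTG in both lines, with medians of -0.25 in alpha-TM180 and -0.41 in alpha-TM175 and no call without extract type. With it, 1 of the 7 fell in each line, Dld, the dihydrolipoamide dehydrogenase that 2-oxoglutarate dehydrogenase shares with the pyruvate and branched-chain complexes. Dld read 388, 324, 362 and 395 in alpha-TM180, 372, 298 and 294 in alpha-TM175, and 579, 494 and 644 in NTG, with no overlap in either line. Its log2 difference was -0.64 in alpha-TM180 (limma adjusted p = 0.0608, with extract type 0.0196) and -0.83 in alpha-TM175 (adjusted p = 0.124, with extract type 0.0308). The list of transporters held 3 measured genes, Slc25a10, Slc25a11 and Slc25a13. All 3 also lay below NTG in both lines (medians -0.34 and -0.50), and with extract type 1 of 3 fell in each line. This was Slc25a13, at -0.54 in alpha-TM180 (adjusted p = 0.126, with extract type 0.0454) and -0.64 in alpha-TM175 (adjusted p = 0.167, with extract type 0.0468). Slc25a13 is an aspartate-glutamate carrier and does not itself carry cycle intermediates. Slc25a10 and Slc25a11 were called in neither model.

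Reactions that fill or drain the cycle were below NTG for 10 of 10 genes in alpha-TM180 and 8 of 10 in alpha-TM175, with medians of -0.17 and -0.15 and no call in either model. The smallest p in alpha-TM180 belonged to Pccb, a subunit of propionyl-CoA carboxylase, at -0.34 (limma adjusted p = 0.305), and to its partner Pcca at -0.37 (adjusted p = 0.428). Of 5 cytosolic counterparts, 4 lay below 0 in alpha-TM180 and 5 in alpha-TM175, with medians of -0.09 and -0.20 and no call in either model; Acly, which splits citrate in the cytosol, was at 0.17 in alpha-TM180 (adjusted p = 0.852), and Idh1, the cytosolic isocitrate dehydrogenase, at -0.38 (adjusted p = 0.864). Of 9 regulators of mitochondrial genes, 8 lay below 0 in alpha-TM180 and 6 in alpha-TM175, none called in either model. With extract type in the model, 7 lay below 0 in alpha-TM180 and 6 in alpha-TM175. The coactivator Ppargc1a was at -0.80 in alpha-TM180 (adjusted p = 0.349) and -0.53 in alpha-TM175 (adjusted p = 0.477). The nuclear receptor Esrra, which acts with it on mitochondrial genes, was at -0.27 in alpha-TM180 (adjusted p = 0.463).

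General mitochondrial proteins of the membranes, import and chaperone systems lay below NTG for 10 of 10 genes in both lines, with medians of -0.17 in alpha-TM180 and -0.36 in alpha-TM175 and no call in either model. Hspa9, a matrix chaperone, was at -0.27 (limma adjusted p = 0.528) and Immt, which shapes the inner membrane, at -0.35 (adjusted p = 0.731) in alpha-TM180. The summed intensity of the 10 was 13713 to 14704 in alpha-TM180, 13024 to 14364 in alpha-TM175 and 15174 to 16075 in NTG, without overlap. Over the 10 cycle genes, each by its brightest probe set as in this list, the medians were -0.21 in alpha-TM180 and -0.22 in alpha-TM175. Whether the 2 lists differ was not tested. The values of this list and of the related lists above are as deposited, and they were not set against probe sets of like level. Over all probe sets, level bins 18, 19 and 20 (the brightest) had medians of -0.12, -0.14 and -0.13 in alpha-TM175. In alpha-TM180 the medians of these bins were 0.01, 0.01 and -0.02. In whole ventricle, fewer mitochondria-rich cells and less transcript per cell cannot be told apart.

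**Figure D5:**
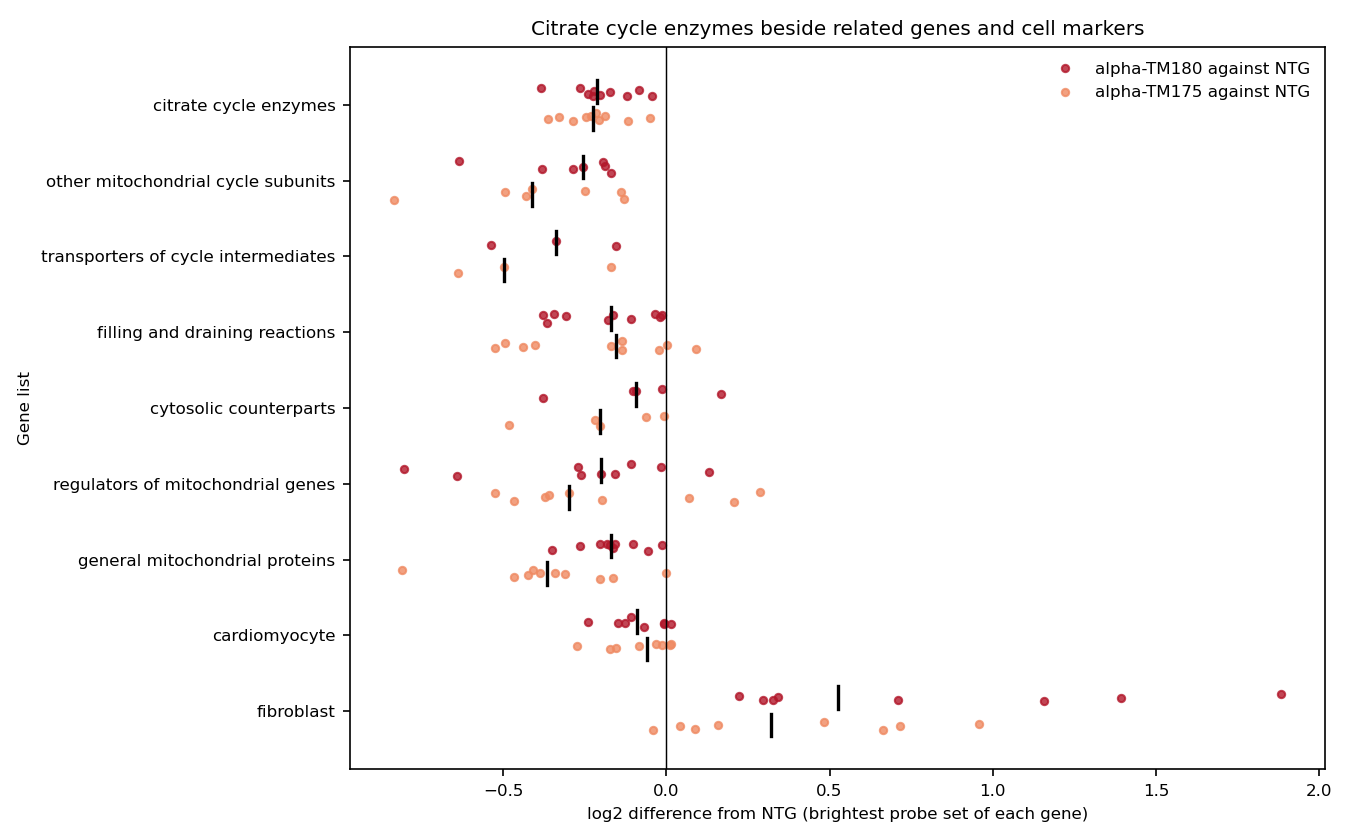
Log2 difference from NTG of the brightest probe set of each gene, by gene list, with alpha-TM180 (upper row of each list) and alpha-TM175 (lower row); each point is a gene and the black bar is the list's median. The mitochondrial lists have medians between -0.50 and -0.15 in these lines, the cardiomyocyte markers have medians of -0.09 in alpha-TM180 and -0.06 in alpha-TM175, and the fibroblast markers have medians of 0.52 in alpha-TM180 and 0.32 in alpha-TM175.

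Of 8 lists of cell type markers, only the fibroblast list held a call against NTG. None of the 8 cardiomyocyte markers was called in either model (medians -0.09 in alpha-TM180 and -0.06 in alpha-TM175), and 7 of 8 lay below 0 in alpha-TM180 and 6 of 8 in alpha-TM175. Ryr2, the calcium release channel of the sarcoplasmic reticulum, was at -0.24 in alpha-TM180 (limma adjusted p = 0.546) and -0.27 in alpha-TM175 (adjusted p = 0.370), a size like the cycle enzymes' median, and Tnni3 at -0.15 in alpha-TM180 (adjusted p = 0.688). The scale of the Actc1 probe set in the deposited table could not be settled, and the other 7 summed to 46144 to 51445 in alpha-TM180, 48615 to 50090 in alpha-TM175 and 49976 to 54449 in NTG. Of the listed markers, Myh6, Tnnt2, Tnni3, Myl2, Myl3 and Pln all averaged between 5657 and 10448 in each group, and Ryr2 averaged between 1352 and 1633. Of 8 fibroblast markers, 8 lay above 0 in alpha-TM180 and 2 rose, Col1a1 (log2 1.88, limma adjusted p = 0.015) and Col1a2 (log2 1.16, adjusted p = 0.0394), which encode the chains of type I collagen; 4 rose with extract type, adding Col3a1 and Lum. In alpha-TM175, 7 of 8 lay above 0 and none was called. The summed fibroblast marker intensity was 7744 to 11869 in alpha-TM180, 6128 to 9623 in alpha-TM175 and 4507 to 6765 in NTG. Endothelial markers summed to 1762 to 1883 in alpha-TM180, 1663 to 2213 in alpha-TM175 and 1533 to 1660 in NTG, with none of 5 called. All 5 lay above 0 in both lines. Red blood cell markers summed to 178 to 198 in alpha-TM180, 287 to 297 in alpha-TM175 and 200 to 230 in NTG, with none of 2 called against NTG. No smooth muscle, macrophage, atrial or adipocyte marker was called against NTG either. In the order alpha-TM180, alpha-TM175 and NTG, smooth muscle sums were 1501 to 2375, 1565 to 1895 and 1447 to 1700, with 4 of 4 above 0 in both lines. Macrophage sums were 1351 to 1699, 1153 to 1562 and 1256 to 1421. Adipocyte sums were 236 to 267, 223 to 257 and 242 to 257. Atrial sums were 240 to 675, 284 to 351 and 217 to 352. Between the lines, the red cell marker Alas2 was lower in alpha-TM180 than in alpha-TM175 (log2 -0.70, limma adjusted p = 0.136, with extract type 0.0388). Of the 3 atrial markers, 1 lay above 0 in alpha-TM180 and 2 below. The 1 above was Myl7 at log2 1.28 (limma adjusted p = 0.804), which read 89.3, 34.2, 455 and 337 there. Myl7 read 46.3, 39.3 and 151 in alpha-TM175, and 151, 39.8 and 37.2 in NTG. The part of any of these lists in the members' values was not tested.

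The genes whose log2 intensities followed the mean of the members most closely over the 10 arrays were Eno3 (muscle enolase of glycolysis, Pearson correlation 0.976), Ndufs1 (a core subunit of respiratory complex I, 0.970), Bckdhb (a subunit of branched-chain keto acid dehydrogenase, 0.969), Trmt5 (a tRNA methyltransferase, 0.960) and Acadm (medium-chain acyl-CoA dehydrogenase, 0.956). These values describe likeness among genes picked as the closest, over arrays that include the group differences. Acadm read lower by 0.41 on the log2 scale in both lines (limma adjusted p = 0.107 in alpha-TM180 and 0.185 in alpha-TM175), and with extract type it was called in alpha-TM180 (adjusted p = 0.0398) and not in alpha-TM175 (0.0628). With extract type Bckdhb (adjusted p = 0.0454) and Trmt5 (0.0366) were also called as lower in alpha-TM180 and Eno3 and Ndufs1 were not, and none of the 5 was called in alpha-TM175.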

How the data were processed

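The authors deposited 1 table of linear intensities for 22690 probe sets in 10 arrays. The submitters' processing notes name RMA (background correction, quantile normalization and probe summary), and its version is not given in the sources used here. As read here, the arrays did not share 1 distribution of intensities. The 99th percentile ran from 2230 in alpha-TM175 array 1 to 2729 in NTG array 1. In that deposited table intensities of 1000 or more carry a point before their last 3 digits, and 7844 of 226900 values were multiplied by 1000, among them 138 of the 170 member values. For 225 probe sets other than controls the scale could not be settled and the values stayed as written; no member was among them. Probe sets were named through GEO's platform annotation: 20380 had 1 symbol, 691 several and 1555 none, and 64 control probe sets were left out.

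Log2 intensities of 22626 probe sets were fitted with limma 3.58.1 in R 4.3.3, as 1 mean per genotype over all 10 arrays, with moderated tests and Benjamini-Hochberg adjustment over all probe sets (called under 0.05). The procedure was tested on simulated data. Alternatives were extract type as a covariate, single hearts only, only the groups compared, a block for replicate number, a filter on level, renewed quantile normalization, median centring, a trended robust fit, gene means, and leaving out each array. Promoter motifs and exact permutation tests used Python 3.11.15 and scipy 1.17.1. The named genes were all members, plus, from each list of related mitochondrial or cytosolic genes, those called in either model or else the 2 with the smallest p in alpha-TM180, and the 5 genes most like the members' mean. Cell type markers are given as counts and sums, and those named singly were picked after their values were seen. Members and lists were chosen with earlier results of these data known. Replicate numbers were not taken as pairs in the main fit, and number 3 holds both pools and a single heart. The labels do not say whether single hearts came from separate litters or days, so p-values measure the spread between these extracts. The number of arrays limits the precision, and listed genes without a probe set of their own were not analysed here.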

Additional observations from a re-analysis of the deposited data

Results flagged for a closer look

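Idh3g (probe set 1416789_at) had 1 alpha-TM180 array far from the others: array 1 read 2942, against 2194 to 2292 in the other 3, a gap of 0.869 of the group's range which is above Dixon's 95% critical value for 4 samples. It was the 1 group found among 17 tested, and chance flags about 1 in 20 groups.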

How the results depend on the processing

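Without extract type in the model, no citrate cycle probe set was called between genotypes under any alternative run; with it, 2 were called in alpha-TM175 against NTG when NTG array 2 was left out (0 to 2 over the arrays left out). The members' median stayed between -0.27 and -0.16 in both lines when arrays were left out, but in alpha-TM175 it moved to -0.11 after renewed quantile normalization, and in alpha-TM180 against alpha-TM175 to -0.063, below 0. Counts over all probe sets varied much more. In alpha-TM180 against NTG (114) they were 454 with extract type, 44 with single hearts only, 55 with only the 2 groups, 32 with the replicate block, 8 (without NTG array 1) to 135 with arrays left out, and 99 to 484 with arrays left out and extract type in the model; leaving out alpha-TM180 array 2, 3 or 4, alpha-TM175 array 2 or any NTG array moved the count to between 8 and 62. In alpha-TM175 against NTG (2) they were 195 with extract type, 1 with median centring or the replicate block, 0 with only the 2 groups, and 1 to 1248 (with extract type and without NTG array 2) with arrays left out. In alpha-TM180 against alpha-TM175 (0) they were 6 with extract type and 0 to 885 (with extract type and without NTG array 1) with arrays left out. Between pooled and individual extracts (5013) they were 2578 without genotype in the model, 1926 among probe sets above the median level and 2049 (without alpha-TM180 array 4) to 6791 with arrays left out; the members called there numbered 1 after quantile normalization and 0 to 3 (without NTG array 1) with arrays left out. Against NTG, only small differences turned sign. After quantile normalization these were Mdh2 (1416478_a_at) at 0.014 in alpha-TM180, and Idh2 at 0.034, Idh3g (1416788_a_at) at 0.022 and Mdh2 (1433984_a_at) at 0.044 in alpha-TM175. The dimmer Idh3b probe set in alpha-TM175 was -0.079 in single hearts, -0.039 after median centring and -0.096 to 0.12 with arrays left out, and the mean of both Idh3b probe sets in alpha-TM180 was 0.053. With arrays left out, Idh3g (1416788_a_at) ran from -0.15 to 0.031 in alpha-TM180 and Idh2 from -0.14 to 0.050 in alpha-TM175. In alpha-TM180 against alpha-TM175, Cs (1422578_at) was 0.016 after median centring and -0.070 to 0.023 with arrays left out, and 8 of the 17 signs turned after quantile normalization. Of the 17 signs there, 3 turned in single hearts, 4 after median centring and 4 without alpha-TM175 array 1. Sucla2, at 0.13 in the main fit, was -0.063 in single hearts. The cause of these shifts was not tested. Within replicate numbers, correlations of deviations from the group means ran from -0.53 to 0.71. Both ends came from number 3, which holds both pools and a single heart. Among single hearts, number 1 gave -0.11 to 0.31 and number 2 gave 0.31 to 0.48. Whether the numbers pair the arrays cannot be decided from this, and the block called no member. Leaving out arrays other than alpha-TM175 array 1 with extract type in the model was chosen after seeing the data. Few arrays and 1 pool per group limit what could be called.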
